A study of Mus musculus with 43 samples.

Results

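Long-term dietary restriction (DR) was compared with ad libitum (AL) feeding in the brain of mice labelled as lacking insulin receptor substrate 1, KO DR against KO AL. The members are the entries of the deposited expression table that had the status OK in both groups and an FPKM of at least 1 in one of them. FPKM is the number of fragments scaled to transcript length and to the fragments mapped. Of 42349 entries, 15641 were members, and 15349 of these had an FPKM above 0 in both groups and were tested. The remaining 292 members were listed at 0 in a group, 77 of them in KO AL and 215 in KO DR, and 7 of the 292 were protein-coding genes. The members nearest to the FPKM limit among protein-coding genes were Lrig3, inside it at 0.832 in KO AL and 1.00 in KO DR, and Tmem252, outside it at 0.9996 and 0.618.

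The KO mice carried a global deletion of Irs1 (Irs1-/-) and the WT mice were Irs1+/+. All were female and 15 months old, and brain poly-A RNA was sequenced on an Ion Proton instrument. DR animals had received 30% less food than AL animals for 12 months, reached in steps that began at 10 weeks of age. The labels give 3 libraries each for KO AL, KO DR and WT DR and 2 for WT AL, and they do not say which region of the brain was taken. The knockout affects every tissue from conception, so a difference in brain cannot be assigned to loss of the gene in brain cells.

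IRS1 is an adaptor that carries signals from the insulin and IGF-1 receptors to the kinases below them. DR can lower circulating insulin and IGF-1, although the study reports no effect of DR on fasting insulin in its mice. Peptide neurons of the hypothalamus are known to sense energy and water balance. Oxidative phosphorylation, which supplies most of the ATP of neurons, is carried out by complexes whose subunits are encoded in the nucleus and in the mitochondrial genome.

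The deleted gene was read first. Irs1 (chromosome 1, 82233101 to 82291416, GRCm38) had an FPKM of 3.49 in KO AL (95% interval 1.36 to 5.61) and 4.14 in KO DR (2.41 to 5.87). In WT AL it had 2.47 (0.793 to 4.16), and in WT DR 1.62 (1.03 to 2.21). The groups labelled KO were thus not below the groups labelled WT, and the difference between KO DR and KO AL was 0.25 on the log2 scale (SE 0.53) and was not called. A single value for the whole gene cannot show which exons were read, so every direction given here is that of the labelled groups.

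Only group values with 95% intervals were used here, so no value per library can be shown. Each difference is a log2 ratio of group FPKM values, its standard error comes from the authors' intervals, and a gene is called at an adjusted p under 0.10 (two-sided Wald test, Benjamini-Hochberg over all tested entries). The median SD was 40.1% of the FPKM in KO AL, 29.8% in KO DR, 45.7% in WT AL and 27.2% in WT DR, and the median SE of a difference was 0.75. Over all tested entries the median difference was 0.03.

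In the brain of KO mice DR up-regulated 22 entries (0.143% of those tested) and down-regulated 34 (0.222%). Of 11532 protein-coding genes 10 rose (0.0867%) and 12 fell (0.104%), and 1 mitochondrial ribosomal RNA fell. The other 33 were small RNA genes, predicted genes, pseudogenes or entries that join several genes, and they are counted but not described. Apart from Whamm and Hist1h4i, the genes that rose are known as markers of particular brain regions or as neuropeptides, and those that fell include mitochondrial, ribosomal and secreted proteins. In whole tissue, fewer cells of a type and less RNA per cell cannot be told apart. With a t distribution of 4 degrees of freedom in place of the normal, 3 entries were called up and 4 down, and Hist1h4i was the only named gene still called. With each SD divided by the square root of the number of libraries, 300 were called up (1.95%) and 364 down (2.37%).

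The plot of differences against level shows both sets.

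**Figure D1:**
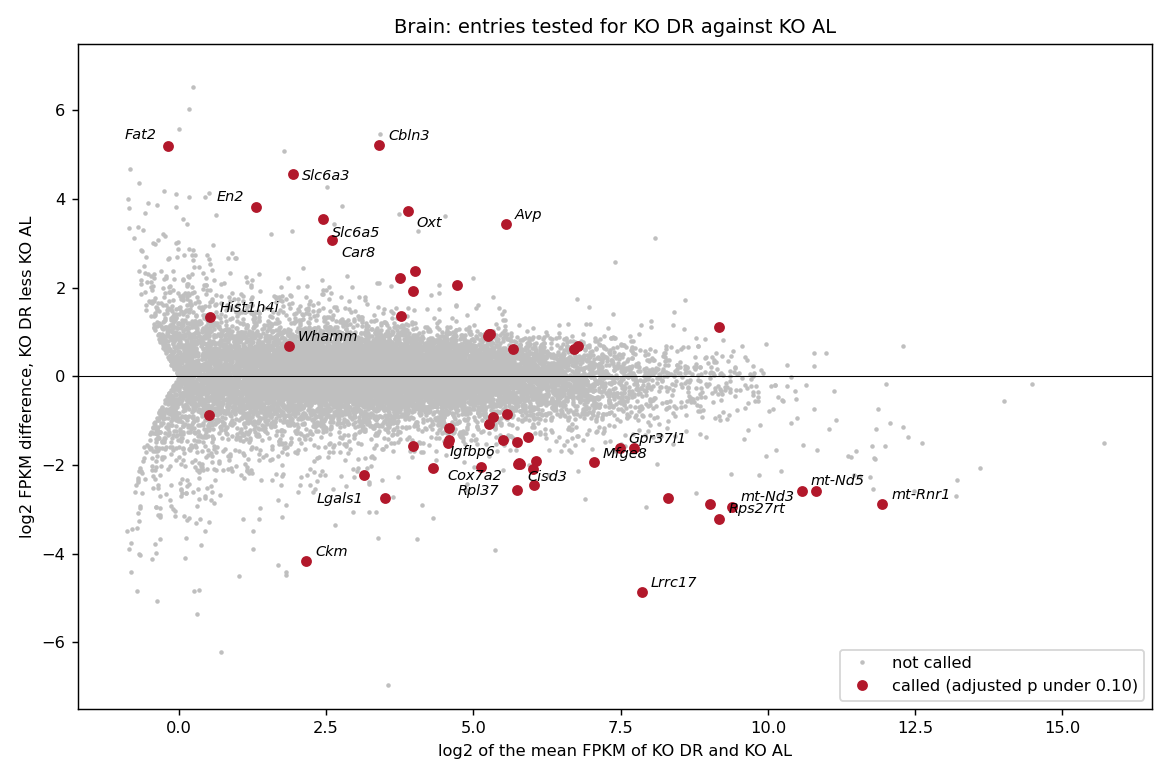
Log2 FPKM difference (KO DR less KO AL) against the log2 of the mean FPKM of both groups for the entries tested in brain, with called entries in red and named genes labelled. The 22 entries called up and 34 called down include Cbln3, Fat2 and Slc6a3 at the top and Lrrc17 and Ckm at the bottom, while Hist1h4i and Whamm lie within the cloud of entries that were not called. The axis leaves out 2 entries, neither of them called.

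Start-site sequences are shown for 6 of the called genes, 3 that rose and 3 that fell, so that members that moved the same way can be read side by side. They are the RefSeq promoters of GRCm38.p6, 250 bases before to 50 after the annotated start, 5′ to 3′ on the gene's strand, and 16 of the 23 named called genes had an entry. Capitals mark any of 4 motifs searched on both strands: TATAAA (a core promoter box), TGACGTCA (cAMP response element), AAAGGTCA (bound by the NR4A family) and CTTCCGG (bound by the ETS family).
Cbln3, minus strand, chr14:55884207-55884506: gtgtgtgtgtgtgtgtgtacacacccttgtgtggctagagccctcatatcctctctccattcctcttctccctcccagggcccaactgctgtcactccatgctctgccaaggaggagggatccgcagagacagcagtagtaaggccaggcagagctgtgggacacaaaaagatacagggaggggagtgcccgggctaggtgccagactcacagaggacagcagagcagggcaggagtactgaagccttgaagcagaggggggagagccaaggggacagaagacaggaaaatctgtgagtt
Slc6a3, plus strand, chr13:73536497-73536796: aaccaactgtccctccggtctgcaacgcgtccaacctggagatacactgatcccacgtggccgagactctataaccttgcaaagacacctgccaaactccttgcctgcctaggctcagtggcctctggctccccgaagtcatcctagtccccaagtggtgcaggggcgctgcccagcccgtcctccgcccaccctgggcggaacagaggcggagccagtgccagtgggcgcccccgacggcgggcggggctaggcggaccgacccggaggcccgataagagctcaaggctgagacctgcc
Avp, minus strand, chr2:130582539-130582838: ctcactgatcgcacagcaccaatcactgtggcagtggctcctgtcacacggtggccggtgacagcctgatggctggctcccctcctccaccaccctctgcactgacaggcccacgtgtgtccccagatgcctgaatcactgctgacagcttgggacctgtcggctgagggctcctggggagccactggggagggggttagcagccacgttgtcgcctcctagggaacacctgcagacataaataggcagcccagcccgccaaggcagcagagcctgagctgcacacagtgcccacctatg
Lrrc17, plus strand, chr5:21543277-21543576: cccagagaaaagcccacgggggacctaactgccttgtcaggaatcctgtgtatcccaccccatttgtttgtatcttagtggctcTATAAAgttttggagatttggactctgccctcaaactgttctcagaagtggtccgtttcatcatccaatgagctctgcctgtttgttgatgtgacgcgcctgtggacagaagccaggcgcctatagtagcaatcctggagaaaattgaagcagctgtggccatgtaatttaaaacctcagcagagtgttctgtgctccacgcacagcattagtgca
Igfbp6, plus strand, chr15:102143936-102144235: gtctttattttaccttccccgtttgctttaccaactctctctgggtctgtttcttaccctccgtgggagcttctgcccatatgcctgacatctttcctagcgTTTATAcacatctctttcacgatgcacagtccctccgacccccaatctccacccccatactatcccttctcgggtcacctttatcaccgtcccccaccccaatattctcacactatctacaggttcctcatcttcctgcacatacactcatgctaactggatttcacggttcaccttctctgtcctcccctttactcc
Rpl37, plus strand, chr15:5116363-5116662: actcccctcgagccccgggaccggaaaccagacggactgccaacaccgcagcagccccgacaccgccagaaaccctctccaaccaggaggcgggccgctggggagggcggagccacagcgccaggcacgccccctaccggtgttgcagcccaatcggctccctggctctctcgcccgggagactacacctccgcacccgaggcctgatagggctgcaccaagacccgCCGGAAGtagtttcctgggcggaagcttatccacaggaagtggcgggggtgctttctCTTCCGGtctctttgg
The 3 genes shown that rose held none of the 4 motifs. TATAAA stood 166 bases before the start of Lrrc17 and, on the opposite strand, 148 before that of Igfbp6. CTTCCGG lay 23 bases before the start of Rpl37, on the opposite strand, and again 34 bases after it. Over the 16 promoters, 2 held TATAAA, 1 held CTTCCGG and 13 held no motif. The 3 genes shown that fell are thus all the called genes with a motif. Motif content cannot be compared between directions from the 6 sequences shown. Of 27025 promoters of the same length in the reference, 14.2% held TATAAA, 9.12% CTTCCGG, 1.88% TGACGTCA and 1.46% AAAGGTCA. These matches describe the letters of the window alone.

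Of the 10 named genes that rose, 4 were on a list of cerebellar markers. Of 15 tested entries on that list, 4 rose, beside 0.143% of all tested entries, and none fell. The list was chosen with earlier results of these data known. An entry that met the FPKM limit in KO DR alone could only be above 0, as 5 of the 15 did. The called genes Cbln3, Fat2 and En2 were among those 5, and of the called genes only Car8 met the limit in both groups. Lists with such entries are therefore described by all their entries with an FPKM over 0 in both groups, with no limit. On that basis 14 of 16 cerebellar entries had a difference above 0 (median 1.41), beside 52.8% of 20564 entries in the whole table (median 0.04), and the 10 entries of at least 1 FPKM in both groups had a median of 0.55. With the limit, 52.2% of all tested entries were above 0 and 47.8% below. Cbln3, a secreted partner of cerebellin 1 made by granule cells (chromosome 14, 55878913 to 55884392), had an FPKM of 0.553 in KO AL (0 to 1.34) and 20.6 in KO DR (4.87 to 36.3). WT AL had 0.464 and WT DR 0.276, so KO DR stood above the other brain groups, whose intervals all lay under its lower bound. The difference was 5.22 (SE 1.17), a 37.2-fold rise.

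Fat2, a protocadherin of granule cells (chromosome 11, 55250609 to 55336564), had an FPKM of 0.0469 in KO AL (0 to 0.104) and 1.72 in KO DR (0.421 to 3.01), a difference of 5.20 (SE 1.03). It stood at 0.843 in WT AL and 0.0638 in WT DR. Car8, a carbonic anhydrase-related protein of Purkinje cells (chromosome 4, 8143362 to 8239041), went from 1.29 (0.271 to 2.31) to 10.8 (5.47 to 16.2), a difference of 3.07 (SE 0.67). En2, a homeobox factor that patterns the midbrain and cerebellum (chromosome 5, 28165694 to 28172166), went from 0.327 (0 to 0.782) to 4.62 (2.39 to 6.86), a difference of 3.82 (SE 1.06), and it had the highest adjusted p of the named calls. In all 4 genes the intervals of KO AL and KO DR did not overlap, as in 59 tested entries that were higher in KO DR (0.384%), and 52 entries that were lower had intervals apart (0.339%).

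Members that were not called included Cbln1, another secreted cerebellin, at 18.1 in KO AL and 62.8 in KO DR (difference 1.79, SE 0.56), and Zic2, at 7.58 and 22.0 (1.54, SE 0.60). Gabra6, the granule cell GABA receptor subunit, had 0.0250 and 2.32, and Slc1a6, a Purkinje cell glutamate transporter, was lower at 11.04 and 5.59. In WT none of 12 tested entries was called. The summed FPKM of the list was 134 in KO AL, 278 in KO DR, 96.2 in WT AL and 138 in WT DR.

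Both neurohypophysial hormones rose. Avp, which encodes vasopressin (chromosome 2, 130580620 to 130582554), had an FPKM of 7.94 in KO AL (0 to 16.2) and 86.2 in KO DR (28.1 to 144), against 15.2 in WT AL and 34.6 in WT DR. The difference was 3.44 (SE 0.89), a 10.9-fold rise. Oxt, which encodes oxytocin and lies beside Avp (chromosome 2, 130576173 to 130577054), had 2.06 in KO AL (0 to 4.58) and 27.5 in KO DR (9.11 to 45.9), a difference of 3.74 (SE 1.01). Oxt had similar values in WT, 2.01 in WT AL (0 to 5.71) and 27.7 in WT DR (13.1 to 42.4). That WT difference of 3.79 was not called, and the interaction was -0.05 with an SE of 1.71.

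On the list of feeding and hypothalamic peptides these were the only 2 of 17 tested entries called, beside 0.143% called up over all entries. With no limit 13 of 18 were above 0 (median 0.81), and the 15 of at least 1 FPKM in both groups had a median of 0.72. Hcrt, the orexin precursor that promotes wakefulness and feeding, had 3.10 in KO AL and 30.3 in KO DR (difference 3.29, SE 1.03). Pmch, the melanin-concentrating hormone precursor, had 11.3 and 52.2 (2.21, SE 1.12). Pomc, the melanocortin precursor that restrains feeding, was lower at 12.3 and 4.30 (-1.51, SE 0.69), and Cck had 257 and 134 (-0.94, SE 0.51). None of these 4 was called. Regional markers of the hypothalamus, such as Otp (0.945 and 3.32) and Magel2 (1.87 and 5.49), were not called, nor were the other 4 tested entries of that list, 2 of the 6 having met the limit in KO DR alone. With no limit 9 of 10 were above 0 (median 1.28), and the 4 of at least 1 FPKM in both groups had a median of 0.69.

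Slc6a3 and Slc6a5, which encode the reuptake transporters for dopamine and for glycine, rose as well. Slc6a3 (chromosome 13, 73536747 to 73578672) had an FPKM of 0.312 in KO AL (0 to 0.676), 7.34 in KO DR (3.81 to 10.9), 16.1 in WT AL (3.61 to 28.7) and 0.104 in WT DR (0 to 0.231). KO DR and WT AL were high and the other groups near 0, and the intervals of the high and the low groups did not overlap. The difference in KO was 4.56 (SE 0.91), and in WT it was -7.28, both called. Slc6a5 (chromosome 7, 49910146 to 49963856), a marker of brainstem and spinal glycine neurons, had 0.854 in KO AL (0 to 1.72), 9.99 in KO DR (3.23 to 16.8), 8.49 in WT AL (0.380 to 16.6) and 0.457 in WT DR (0.0979 to 0.817). Its difference was 3.55 in KO (SE 0.88) and -4.21 in WT, both called.

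**Figure D2:**
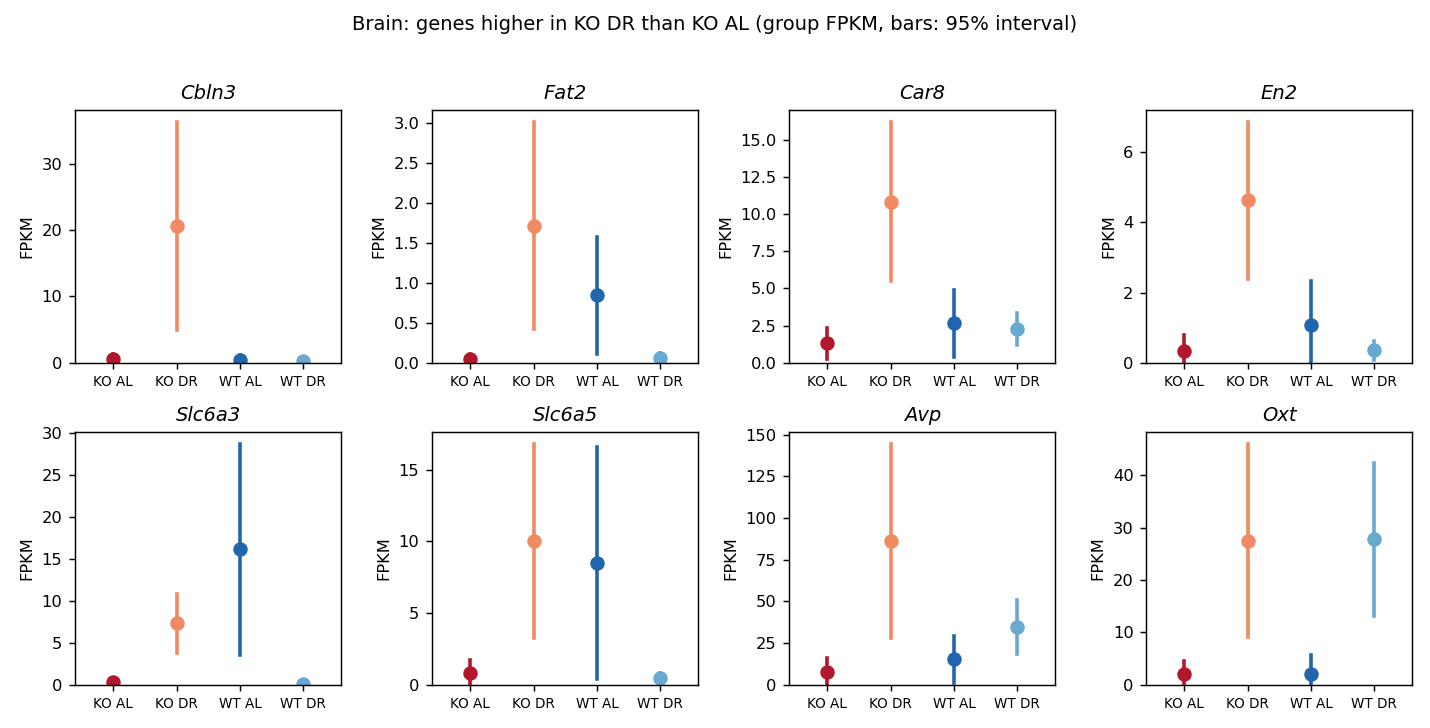
FPKM of 8 genes that rose in KO DR against KO AL, in the 4 brain groups; points are group values and bars the authors' 95% intervals, on linear axes from 0. KO DR stands highest for Cbln3, Fat2, Car8, En2, Slc6a5 and Avp, whereas Slc6a3 is highest in WT AL and Oxt is about equal in KO DR and WT DR. The KO DR interval overlaps that of WT AL for Fat2, Slc6a5 and Avp, and that of WT DR for Avp.

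Most other dopamine neuron genes were also above 0 in KO, none of them called. Slc6a3 was the 1 called of 12 tested entries, beside 0.143% called up over all entries. Of the 12, 4, Slc6a3 among them, had met the limit in KO DR alone and 1 in KO AL alone. With no limit 11 of 13 were above 0 (median 1.84), and the 7 of at least 1 FPKM in both groups had a median of 0.92. Ddc, which converts L-DOPA to dopamine, had 8.44 in KO AL and 30.3 in KO DR (1.84, SE 0.63). Ret, a receptor for glial-derived neurotrophic factors, had 1.63 and 5.80 (1.84, SE 0.65), Slc18a2, the vesicular monoamine transporter, 0.763 and 3.62 (2.25, SE 0.82), and Chrna6, a nicotinic receptor subunit, 0.264 and 1.70 (2.69, SE 1.05). In WT 5 of 11 tested entries were called, all of them down, beside 0.125% of all entries tested in WT. Among these, Slc6a3, Slc18a2 and Chrna6 met the limit in WT AL but not in WT DR, so they could only be down.

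Of 7 tested noradrenaline and serotonin genes none was called, and 5 of them had met the limit in KO DR alone. With no limit 10 of 10 were above 0 (median 2.19), with a summed FPKM of 14.4 in KO AL and 40.7 in KO DR. The 2 entries of at least 1 FPKM in both groups had a median of only 0.25. Tph2, which makes serotonin in the raphe, had 0.706 and 6.86 (3.28, SE 0.99), and Slc6a4, the serotonin transporter, 0.559 and 10.9 (4.28, SE 2.52). On the brainstem and spinal cord list 1 of 7 tested entries was called, beside 0.143% called up over all entries. It was Slc6a5, which had met the limit in KO DR alone. With no limit 8 of 10 were above 0 (median 0.72), and the 5 of at least 1 FPKM in both groups had a median of 0.61. Glra1, a glycine receptor subunit of that list, had 2.38 and 8.59 (1.85, SE 1.00).

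Of the markers of the thalamus, the choroid plexus and the hippocampus none was called in KO. All 12 thalamic entries were above 0 (median 0.76), 1 of them through KO DR alone, among them Tcf7l2 at 2.33 in KO AL and 8.98 in KO DR (1.95, SE 0.79) and Prkcd at 9.58 and 27.4 (1.52, SE 0.66). Of the choroid plexus and ependymal entries 14 of 16 were above 0 with no limit (median 0.94), with Ttr, the thyroxine carrier of the choroid plexus, at 48.5 and 289 (2.58, SE 1.11) and Foxj1, a regulator of motile cilia, at 8.02 and 17.2 (1.10, SE 0.40). Of 10 tested hippocampal entries 4 had met the limit in KO DR alone, and of the 6 of at least 1 FPKM in both groups 4 were above 0 (median 0.87). With no limit 10 of 12 were above 0 (median 1.42).

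Striatal markers had a negative median. All 15 entries for striatal projection neurons were below 0 (median -0.75), none was called, and in WT 14 of the 15 were above 0 (median 0.74). Adora2a, an adenosine receptor of these neurons, had 29.0 in KO AL and 15.9 in KO DR (-0.87, SE 0.63). Of 10 tested olfactory bulb entries none was called, with Cdhr1, a mitral cell cadherin, at 7.06 and 1.29 (-2.45, SE 0.72). With no limit 3 of 11 olfactory bulb entries were above 0 (median -0.67), and the 8 of at least 1 FPKM in both groups had a median of -0.32. Cortical layer markers had a median of 0.03.

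These values of regional markers stand beside the called genes, and their part in the calls of Cbln3, Fat2, Car8, En2, Slc6a3, Slc6a5, Avp and Oxt was not tested. Synaptic vesicle genes summed to an FPKM of 5651 in KO AL and 5528 in KO DR, and myelin and oligodendrocyte genes to 6533 and 6571, so defining brain markers were present in both groups. Markers of neurons and glia in general had medians nearer 0: the median was 0.03 over 25 synaptic vesicle entries, 0.18 over 18 myelin and oligodendrocyte entries, 0.16 over 18 astrocyte entries and -0.22 over 16 microglial entries, with no call in any of these 4 lists. Of the 23 named called genes, 8 had an SD over 50% of the FPKM in a compared group, and 7 of these were among the 10 that rose (Avp, Cbln3, En2, Fat2, Oxt, Slc6a3 and Slc6a5). Where entries with so wide a spread were left out, 16 entries were called up and 34 down.

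**Figure D3:**
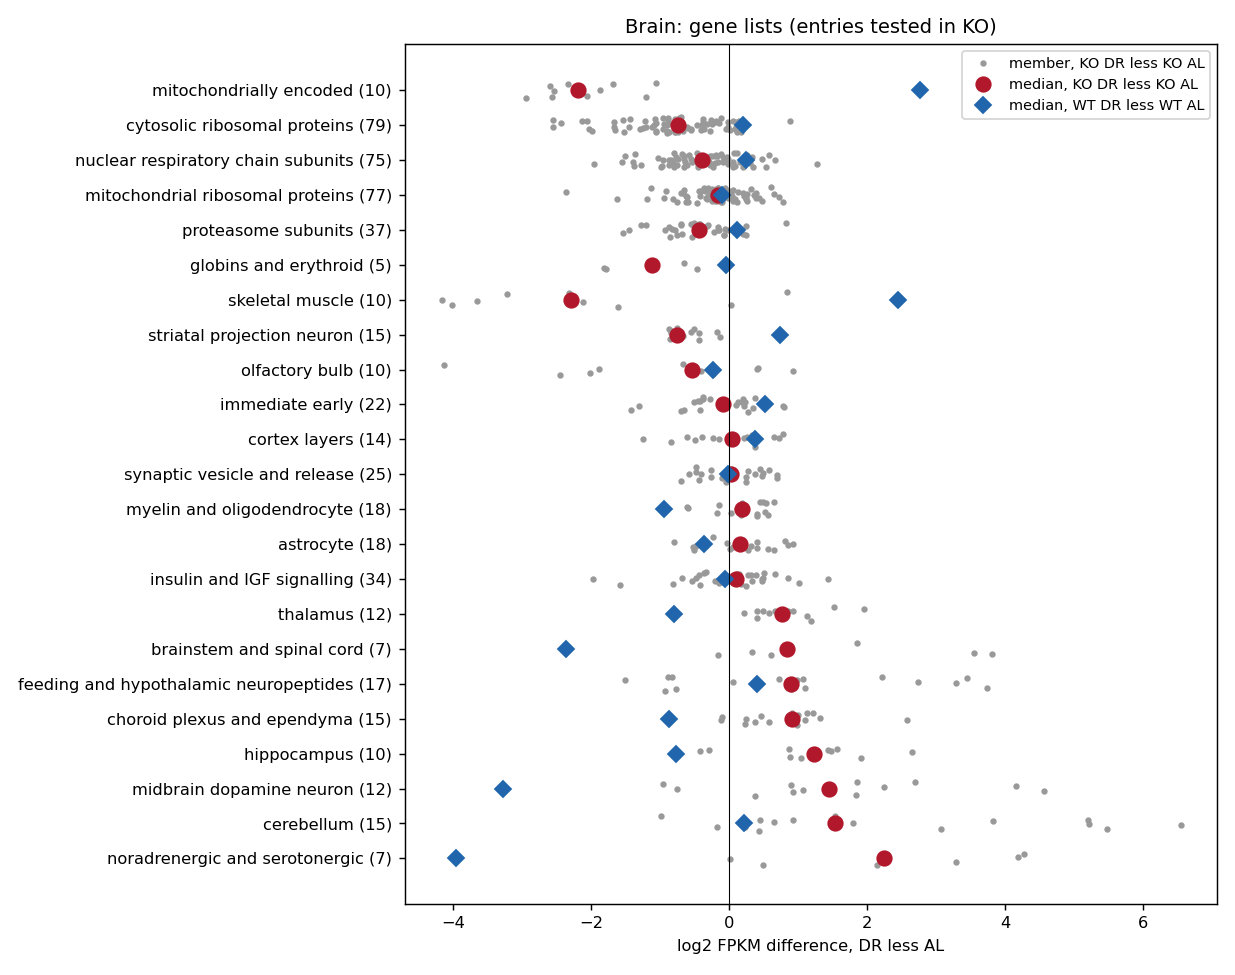
Log2 FPKM difference, DR less AL, for the members of 23 gene lists in brain; grey points are members in KO, red points their median and blue diamonds the median in WT, with the number of tested entries in parentheses. All mitochondrially encoded and striatal members lie below 0 in KO with the WT median above it, while in the muscle, cerebellar, dopamine, noradrenergic, hippocampal and similar lists members under 1 FPKM in one group lie on the side that let them pass the limit.

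Mitochondrially encoded RNAs were lower in KO DR. All 10 entries of protein-coding mitochondrial genes were below 0 (median -2.197), and 2 fell, beside 0.222% of all tested entries. mt-Nd3, a core subunit of complex I (mitochondrial genome, 9459 to 9806), had an FPKM of 1187 in KO AL (494 to 1880) and 154 in KO DR (80.1 to 229), a difference of -2.94 (SE 0.55). mt-Nd5, of the same complex (11742 to 13565), had 2608 in KO AL (1145 to 4070) and 438 in KO DR (274 to 602), a difference of -2.58 (SE 0.49). The small ribosomal RNA mt-Rnr1 (70 to 1024) also fell, from 6936 to 940 (-2.88, SE 0.76), although its intervals overlapped.

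In WT the same 10 entries were all above 0, with a median of 2.77 and mt-Nd3 as the 1 called (3.85). mt-Nd3 had 178 in WT AL (50.7 to 305) and 2565 in WT DR (944 to 4186), so KO AL and WT DR were high and the other groups low. Summed over the 10 entries the FPKM was 71379 in KO AL, 16934 in KO DR, 12607 in WT AL and 83764 in WT DR. In KO AL the largest values in the sum came from entries that join several genes. Their intervals in KO AL all started at 0, the widest reaching 284236, so the sums are uncertain. mt-Co2, a cytochrome oxidase subunit, had 5699 and 1560 in KO (-1.87, SE 0.59) and mt-Cytb 4388 and 1365 (-1.68, SE 0.63), neither of them called. Nuclear copies of mitochondrial genes can share these reads, so the share of each copy is uncertain.

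Nuclear genes of the respiratory chain had a median nearer 0. Of 75 tested entries 58 were below 0 (median -0.39), 1 fell, beside 0.222% of all tested entries, and none rose. The 1 was Cox7a2, a subunit of cytochrome c oxidase (chromosome 9, 79755361 to 79759878), at 87.9 in KO AL (40.6 to 135) and 22.5 in KO DR (11.3 to 33.7), a difference of -1.97 (SE 0.53). Sdhb, of complex II, had 60.4 and 23.3 (-1.37, SE 0.49), and Cox6b1 had 138 and 47.1 (-1.55, SE 0.69). Cisd3, an iron-sulfur protein of the mitochondrial matrix (chromosome 11, 97685826 to 97688621), fell from 87.0 (53.7 to 120) to 22.3 (10.5 to 34.1), a difference of -1.96 (SE 0.47).

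Cytosolic ribosomal protein genes leaned the same way. Of 79 tested entries 68 were below 0 (median -0.75), 2 fell, beside 0.222% of all tested entries, and none rose. With the smaller standard error 17 were called down, against 2.37% of all entries, and none up. Rpl37, of the large subunit (chromosome 15, 5116645 to 5119140), had 91.7 in KO AL (32.9 to 151) and 15.6 in KO DR (7.55 to 23.7), against 11.6 in WT AL and 22.8 in WT DR. Its difference was -2.55 (SE 0.59). The other was an entry joining Rpl10 with a small nucleolar RNA gene, at 110.5 and 20.3 (-2.44, SE 0.55). Rps27rt, a retrogene closely similar to Rps27 (chromosome 9, 114982366 to 114982739), went from 1042 to 112 (-3.21, SE 0.84), and reads of near-identical copies may have been split between them. Rpl14 had 495 and 171 (-1.53, SE 0.50) and Rpl39 74.6 and 23.4 (-1.67, SE 0.57), neither called.

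Proteasome subunits had 33 of 37 tested entries below 0 (median -0.44) and none called, with Psmb1 at 124 and 45.2 (-1.46, SE 0.45). Mitochondrial ribosomal proteins had a median of -0.17 over 77 entries. Many of these genes have short transcripts, and the shortest transcripts had the lowest medians. Among protein-coding genes the median was -0.89 for 24 with transcripts under 500 bases, -0.21 for 363 of 500 to 1000 bases, -0.05 for 1706 of 1000 to 2000 bases, 0.05 for 4592 of 2000 to 4000 bases, 0.13 for 3814 of 4000 to 8000 bases and 0.09 for 694 of 8000 bases or more. The part of transcript length in the ribosomal, mitochondrial and proteasome values was not tested.

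Lrrc17 had the largest called fall. This gene, which encodes a secreted leucine-rich repeat protein (chromosome 5, 21543559 to 21575904), had an FPKM of 448 in KO AL (27.6 to 868) and 15.3 in KO DR (7.24 to 23.4), a difference of -4.87 (SE 0.78). It stood at 4.13 in WT AL and 14.5 in WT DR, so the difference rests on a high and widely spread value in KO AL. Lrrc17 lies within the bounds of Fbxl13, which is transcribed from the other strand, and the strand setting of the counting is not given in the sources used here.

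Igfbp6, a binding protein that prefers IGF-2 (chromosome 15, 102144362 to 102149511), fell from 86.7 (48.4 to 125) to 22.1 (12.2 to 32.1), a difference of -1.97 (SE 0.45). WT AL had 16.3 and WT DR 34.85. Igfbp6 was the only 1 of 34 genes for insulin and IGF signalling that was called, beside 0.222% called down over all entries. The list's median was 0.09. Irs4, a relative of the deleted adaptor, had 1.38 and 3.73 (1.43, SE 0.82), Igfbp2 65.6 and 40.7 (-0.69, SE 0.45), and Shc1, another adaptor of these receptors, 2.79 and 5.62 (1.01, SE 0.68).

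Further genes that fell encode extracellular and glial proteins. Mfge8, an astrocyte-rich secreted protein that bridges phagocytes to dying cells (chromosome 7, 79133768 to 79149060), had 208 in KO AL (99.9 to 317) and 54.9 in KO DR (32.3 to 77.5), a difference of -1.92 (SE 0.48). Gpr37l1, an orphan receptor of astrocytes (chromosome 1, 135160234 to 135167681), had 270 (114 to 426) and 87.7 (73.0 to 102), a difference of -1.62 (SE 0.43). Lgals1, which encodes galectin-1 (chromosome 15, 78926725 to 78930465), had 19.6 (9.20 to 30.0) and 2.94 (0.464 to 5.43), a difference of -2.74 (SE 0.72). None of the 3 is on the astrocyte list, which had 11 of 18 entries above 0.

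**Figure D4:**
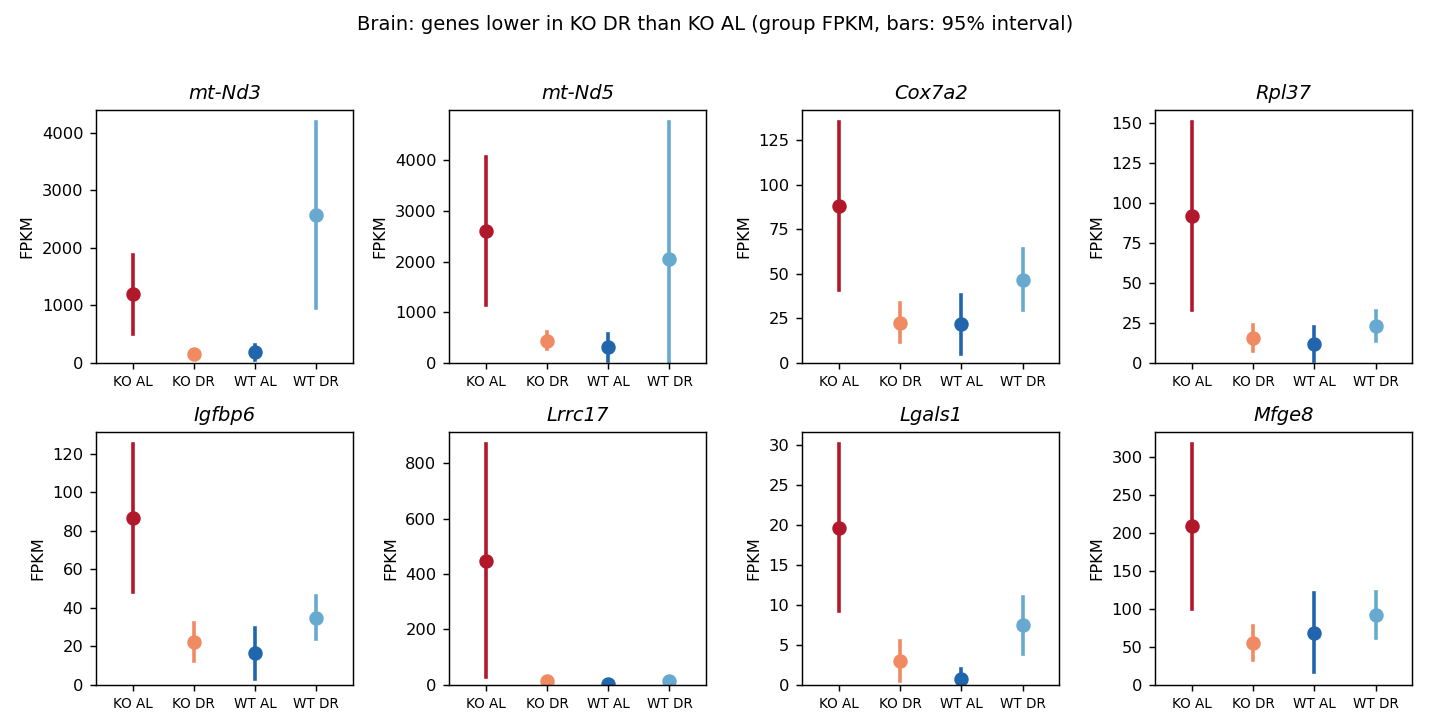
FPKM of 8 genes that fell in KO DR against KO AL, in the 4 brain groups; points are group values and bars the authors' 95% intervals, on linear axes from 0. For Cox7a2, Rpl37, Igfbp6, Lrrc17, Lgals1 and Mfge8 the highest group is KO AL, and for mt-Nd3 and mt-Nd5 both KO AL and WT DR are high.

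Ckm, the creatine kinase of muscle (chromosome 7, 19404776 to 19422841), fell from 8.46 (2.34 to 14.6) to 0.470 (0 to 0.967), a difference of -4.17 (SE 0.92). It belongs to a list of skeletal muscle markers, of which 10 were tested and 1 was called, beside 0.222% called down over all entries. Of the 10, 7 had met the limit in KO AL alone and so could only be below 0. The other 3 had a median of 0.02: Acta1 at -2.27 (SE 18.5), Tcap at 0.02 (SE 0.84) and Pvalb at 0.84 (SE 0.58). Pvalb is also on the interneuron and brainstem lists, so its value in brain cannot be assigned to muscle. With no limit 3 of 12 were above 0 (median -2.30). Of the 7, Myh4, a fast myosin, had 1.18 in KO AL and 0.0730 in KO DR (-4.01, SE 1.20). Blood markers also stood highest in KO AL: the 5 globin and erythroid genes summed to an FPKM of 9907 in KO AL, 3475 in KO DR, 1032 in WT AL and 971 in WT DR. All 5 were below 0 (median -1.12) and none was called. Hba-a1 had 4085 and 1179 (-1.79, SE 1.04) and shares nearly all its sequence with Hba-a2. The part of muscle or blood RNA in the KO AL values was not tested. Of 10 liver and 10 adipocyte markers, 3 and 2 reached the limits for testing.

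Hist1h4i, a replication-dependent histone gene, had 0.824 in KO AL and 2.08 in KO DR (1.33, SE 0.01), and Whamm, an actin nucleation factor, had 2.80 and 4.48 (0.68, SE 0.17). Both were called through narrow intervals. An SD under 10% of the FPKM in a group was found for 24 of the 56 called entries, 21 of which were not protein-coding. Without such entries 7 were called up and 19 down, and Cox7a2, En2 and Oxt were among the genes no longer called.

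Immediate early genes had a median of -0.09 over 22 entries and none was called. Junb had 106 in KO AL and 42.8 in KO DR (-1.30, SE 0.43), and Nr4a1 47.9 and 17.9 (-1.42, SE 0.51). Of 33 tested replication-dependent histones Hist1h4i, which had met the FPKM limit in KO DR alone, was the only call. Over all entries 0.143% were called up. The limit was met in KO AL alone by 12 of the 33. The median was -0.46 over 54 with no limit and -0.02 over the 20 of at least 1 FPKM in both groups. Small nucleolar RNAs had a median of 0.03 over 9 and GABA receptor subunits of -0.24 over 15, with no call in these lists or among the 2 tested pituitary genes. The small nucleolar RNA list held 78 entries, and those beyond the 9 were listed at 0 in KO AL, in KO DR or in both. They do not enter its median, which turned negative with a pseudocount of 0.1. The value of 0.03 therefore describes the 9 alone and not the list. The remaining 24 lists, among them circadian, glucocorticoid, mTOR, unfolded protein, sterol, fatty acid, glycolysis, antioxidant and neurodegeneration genes, had medians between -0.39 and 0.28, with no entry called in either direction.

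The response in KO was then set against that in WT, which shares no library with it. In WT 15 entries rose (0.0989% of 15164) and 19 fell (0.125%). Across the 14670 entries tested in both, the difference in KO and that in WT had a Pearson r of -0.33 and a Spearman rho of -0.29, given as a description since entries of a library are not independent, and 60.8% had opposite signs. Of 35 entries called in KO with a value in WT, 27 had the opposite sign there. Of the entries called in both genotypes, 8 had opposite directions and 1 the same. The 8 are not independent of each other or of the FPKM limit. They include mt-Nd3 and mt-Rnr1, both encoded in the mitochondrial genome. They also include Slc6a3 and Slc6a5, which met the FPKM limit in KO DR and WT AL alone, so their signs had to be opposite.

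The interaction, the difference in KO less that in WT, was called for 62 of 15655 entries, 25 up (0.16%) and 37 down (0.236%). Of 60 called entries with a value in both genotypes, 59 had opposite signs in KO and WT, which the choice of a large difference between them favours. The dopamine list held 7 of the 25 called up: Slc6a3 (11.83, SE 1.38), Chrna6 (8.26, SE 1.53), En1 (8.34, SE 2.201), Slc18a2 (5.999, SE 1.16), Ret (4.63, SE 0.91), Ddc (4.41, SE 0.98) and Th (4.19, SE 1.02). Th, the rate-limiting enzyme of dopamine synthesis, had 6.39 in KO AL, 12.1 in KO DR, 20.6 in WT AL and 2.13 in WT DR. Tph2 (7.79, SE 1.65) and Rln3 (11.78, SE 2.73), a peptide of a pontine nucleus, were called as well. Slc6a3, Chrna6, Slc18a2, Tph2 and Rln3 met the FPKM limit in KO DR and WT AL alone, so their interaction could only be positive.

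Of the mitochondrially encoded entries 4 were called down in the interaction, mt-Nd3 (-6.79, SE 0.88), mt-Nd5 (-5.33, SE 1.24), mt-Cytb (-4.46, SE 1.14) and mt-Co2 (-4.45, SE 1.09). Of the ribosomal protein entries 4 were also called down, and of the immediate early genes Junb (-2.49) and Nr4a1 (-2.88) were. Lrrc17 (-6.68, SE 1.01), Igfbp6 (-3.06, SE 0.77) and Cox7a2 (-3.08, SE 0.81) had called interactions too. Avp (2.25, SE 1.17), Oxt, Car8 (3.29, SE 0.97), Cisd3 (-2.15, SE 0.92), Mfge8 (-2.35, SE 0.76) and Gpr37l1 (-1.40, SE 0.72) did not. In all, 22 of the 39 called entries for which the interaction could be tested were called in it.

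**Figure D5:**
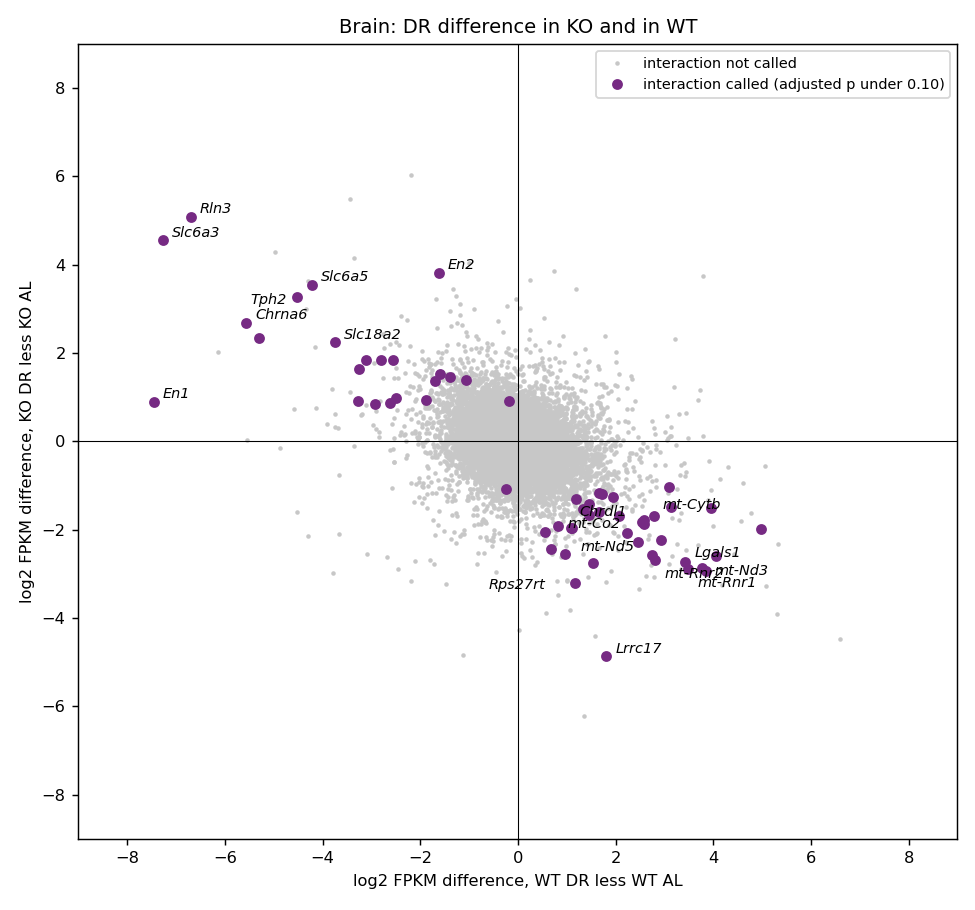
Log2 FPKM difference under DR in KO (vertical axis) against that in WT (horizontal axis) for 14670 entries tested in both, with called interactions in purple and named genes labelled. The 60 called interactions plotted lie in the upper left and lower right parts with 1 exception, the upper left with dopamine, serotonin and glycine neuron genes and the lower right with mitochondrially encoded genes, Lrrc17 and Lgals1.

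The same KO groups had been measured in liver, skeletal muscle and white adipose tissue, and the difference in brain was set against that in each. For mt-Nd3 the difference was 0.38 in liver (SE 0.57), -0.50 in muscle (SE 0.69) and 0.74 in adipose tissue (SE 1.15). Its brain difference less that of the tissue was -3.32 for liver (SE 0.79), which was called, and -2.44 for muscle (SE 0.88) and -3.68 for adipose tissue (SE 1.27), which were not. In the comparison with liver 0.0796% of entries were called up and 0.0265% down.

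For Lrrc17 the difference was -1.93 in muscle (SE 0.67) and 0.32 in adipose tissue (SE 0.64), and in liver it stood under 1 FPKM in both groups. The brain difference less that of the tissue was -5.19 for adipose tissue (SE 1.00), which was called, and -2.94 for muscle (SE 1.03) and -4.14 for liver (SE 1.54), which were not. For Igfbp6 the difference was -0.36 in liver (SE 0.87), -0.36 in muscle (SE 0.45) and 0.91 in adipose tissue (SE 0.49). The brain difference less that of the tissue was -2.88 for adipose tissue (SE 0.67), which was called, and -1.61 for both liver (SE 0.98) and muscle (SE 0.64), which were not. In the comparison with adipose tissue 0.0424% of entries were called up and 0.0848% down, and in that with skeletal muscle 0.0255% up and 0.0318% down. Of the 23 named called genes, Hist1h4i was the only other with a called difference between brain and another tissue.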

How the data were processed

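Brain poly-A RNA of female Irs1-/- (KO) and Irs1+/+ (WT) mice was sequenced on an Ion Proton instrument as part of 43 libraries in 16 groups of 4 tissues. The authors trimmed reads with cutadapt 1.5, aligned them with BBmap to GRCm38 and made FPKM values with Cuffdiff 2.2.1, and the deposited table gives each group's FPKM with a 95% interval. It holds no value or read count per library here, so the depth behind a value is unknown. Of 42349 entries, 873 join several genes.

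The SD of a group was taken as the upper bound less the FPKM, divided by 2. The log2 ratio was given an SE by the delta method and tested with a two-sided Wald test against a normal distribution, adjusted by the Benjamini-Hochberg method over all tested entries and called at an FDR of 10%. Single genes are given by difference, SE and call, since a p from 3 libraries a group rests on the assumed normal distribution. The interaction was the KO difference less the WT difference. An SD from a Cuffdiff model need not equal the spread between animals, which the study's methods give as the unit of n. On simulated data, limited to entries with an FPKM of at least 5 in a group, the test made few false calls with log-normal noise. It made more with normal noise where the SD was a large share of the FPKM. Entries under that level were not simulated. The noise was drawn from the same SD that the test uses, so the simulation cannot show whether that SD matches the spread between animals.

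Genes named were Irs1, up to 15 called genes per direction by size of difference where neither group lay under 1 FPKM, called list members, up to 4 others per list by difference over SE, up to 10 called interactions per direction, and the genes nearest the FPKM limit. Joined entries, predicted genes and small RNA genes were counted but not described, except the joined entry of Rpl10. The called genes that had an FPKM under 1 in one group (Cbln3, Fat2, En2, Slc6a3, Slc6a5, Ckm and Hist1h4i) were named as list members. The members and gene lists were chosen with earlier results of these data known. Alternatives covered the FDR, the filter, pseudocounts, the reference distribution, the SD, centring and entry classes, and 3 of them were added after the data were seen. Positions are those of GENCODE M21. Python 3.11.15, numpy 2.4.6, pandas 2.3.3, scipy 1.17.1 and matplotlib 3.10.9 were used.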

Additional observations from a re-analysis of the deposited data

Results flagged for a closer look

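The DR response differed between KO and WT by the interaction test for 20 genes described here, 10 in each direction. The values are log2 differences, KO less WT, and each was called at an adjusted p under 0.10 by the Wald test over all entries. The interaction was positive for Slc6a3 (11.83), Rln3 (11.78), Fat2 (8.92), En1 (8.34), Chrna6 (8.26), Tph2 (7.79), Slc6a5 (7.76), Slc18a2 (5.999), Wnt9b (5.84) and En2 (5.44). Most of these genes mark dopamine, serotonin, glycine and pontine peptide neurons, granule cells and the midbrain and hindbrain. Slc6a3, Rln3, Chrna6, Tph2, Slc6a5, Slc18a2 and En2 met the limit of 1 FPKM in KO DR and WT AL alone. Their interaction could therefore only be positive. Fat2 and Wnt9b met the limit in KO DR alone, which favours the same sign. Rln3 had an FPKM of 0.199 in KO AL, 6.73 in KO DR, 11.9 in WT AL and 0.114 in WT DR, and Tph2 followed the same order of high and low groups. Wnt9b, a secreted Wnt ligand, had 0.109, 1.12, 0.892 and 0.161 in the same order of groups.

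It was negative for mt-Nd3 (-6.79), Lrrc17 (-6.68), mt-Rnr1 (-6.37), Lgals1 (-6.17), mt-Rnr2 (-5.50), mt-Nd5 (-5.33), mt-Cytb (-4.46), mt-Co2 (-4.45), Rps27rt (-4.38) and Chrdl1 (-4.36). Of these, 6 are encoded in the mitochondrial genome. mt-Rnr2, the large mitochondrial ribosomal RNA, had 16275 in KO AL, 2518 in KO DR, 1514 in WT AL and 10589 in WT DR. Chrdl1, a secreted BMP antagonist, had 3.33, 0.976, 0.753 and 4.53. WT AL had 2 libraries, and its values enter every interaction.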

How the results depend on the processing

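No paired analysis was possible because the table gives 1 value per group, and for the same reason no library could be left out in turn. No difference of a named gene changed sign in any of 544 values recomputed under the alternatives. Most alternatives change only the call or the entries tested and leave the difference as it was. A pseudocount cannot reverse a ratio between KO DR and KO AL. Most signs therefore could not have changed, and their constancy is no test of direction. The numbers called in KO were 59 up and 52 down where the 95% intervals had to be apart, 102 and 236 with a pseudocount of 0.1, 95 and 213 with a pseudocount of 1, and 300 and 364 with the SD divided by the square root of the number of libraries. They were 3 and 4 with a t distribution of 4 degrees of freedom, under which 42 of 43 named results were no longer called. Alternatives chosen after seeing the data gave 7 and 19 without entries with an SD under 10% of the FPKM, and 8 and 10 with protein-coding genes only. The interaction gave 15 up and 26 down at an FDR of 5%, 0 up and 1 down with the t distribution (310 up had an unadjusted p under 0.05 by the Wald test), 137 and 361 with a pseudocount of 0.1, 127 and 328 with a pseudocount of 1, 471 and 336 with the smaller SD, 22 and 19 with protein-coding genes only, and 13 and 23 without entries with an SD over 50% of the FPKM. With a pseudocount SEs shrink by construction. Of 415 list medians 3 moved beyond the spread: small nucleolar RNAs to -4.30 with a pseudocount of 0.1, and, at an FPKM of at least 5, brainstem markers to 1.85 and pituitary genes to -1.51. Of the 52 lists, 41 kept the sign of the median in every alternative. En2 was not called without the filter on low FPKM or with protein-coding genes only, and Oxt, Cox7a2 and Gpr37l1 were not called with protein-coding genes only.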
